A study of Mus musculus with 4 samples.

Results

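Lhx9, Lhx2, Lmx1b and Isl1 encode LIM homeodomain transcription factors of the limb bud, and the Meis ChIP-seq peaks around these 4 genes are described here. A peak was counted at a locus when its summit, the position of highest enrichment, lay in a fixed mm9 window: chr1 from 140.4 to 141.1 Mb for Lhx9, chr2 from 38 to 38.5 Mb for Lhx2, chr2 from 33.2 to 33.7 Mb for Lmx1b and chr13 from 116.6 to 117.9 Mb for Isl1. The windows held 45 of the 21338 forelimb (FL) peaks and 44 of the 16987 hindlimb (HL) peaks. Chromatin came from about 500 FLs and about 500 HLs of wild-type C57BL/6 mouse embryos at E10.5 (36 somites), pooled by limb type. The antibodies, mixed in 1 precipitation, cover every form of Meis1 and the Meis2a,c forms of Meis2, so a peak does not say which Meis protein was bound. Each limb had 1 ChIP library and 1 input library, so no spread between replicates can be given and no difference between FL and HL was tested.

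LIM homeodomain proteins bind DNA through a homeodomain and join partner proteins such as Ldb1 through their LIM domains. In the limb, Lmx1b gives dorsal mesenchyme its identity downstream of Wnt7a from the dorsal ectoderm, while En1 acts in the ventral ectoderm. Lhx2 and Lhx9 act in the distal mesenchyme, where with Lmx1b they link the apical ectodermal ridge to outgrowth and to Shh expression. Isl1 is expressed in the posterior hindlimb field and is needed for hindlimb initiation and for Hand2 expression there. Meis1 and Meis2 are homeodomain proteins of the TALE class and mark the early and the proximal limb bud.

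The loci differed in how tall their peaks were. The tallest peaks lay in the Lhx9 and Isl1 windows. The Lmx1b window held many low peaks, and the Lhx2 window held low peaks, which in FL lay mostly close to the gene. The height used is the fold at the summit as MACS2 gave it, called fold over input here. It sets the ChIP signal against a background that MACS2 estimated with the input. In FL the median fold was 4.92 at Lhx9 (8 peaks), 4.21 at Isl1 (6 peaks), 2.88 at Lmx1b (22 peaks) and 2.66 at Lhx2 (9 peaks), against 2.78 over the whole FL list. In HL it was 3.18 at Lhx9 (5 peaks), 3.003 at Isl1 (10 peaks), 2.69 at Lmx1b (22 peaks) and 2.68 at Lhx2 (7 peaks), against 2.78 over the whole HL list.

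**Figure D1:**
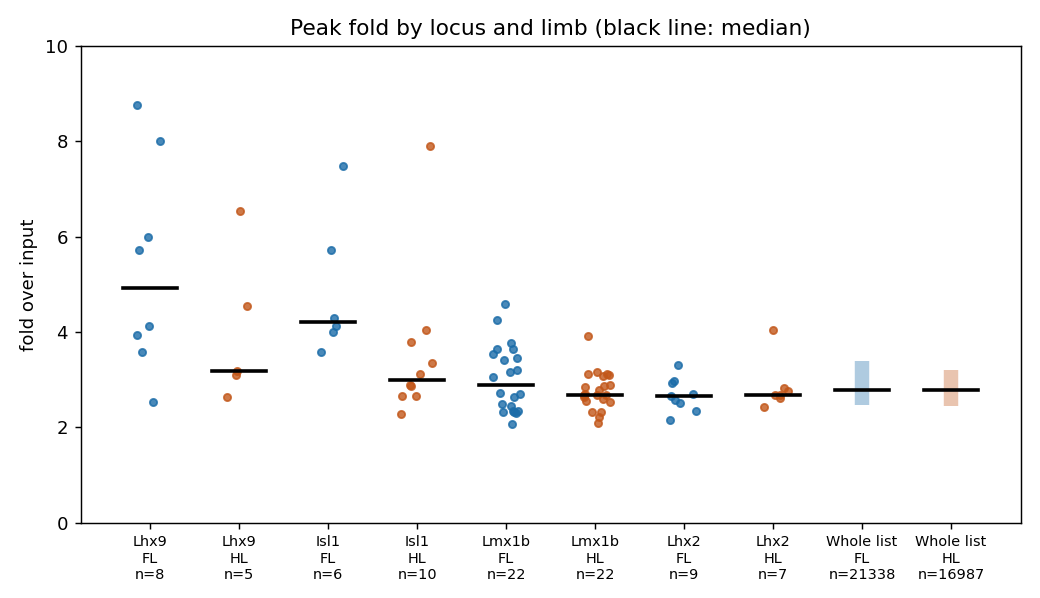
Fold over input (vertical axis) of each peak, by locus and limb (horizontal axis, FL in blue and HL in orange), with black lines at the medians and shaded bars from the lower to the upper quartile of each whole list. The FL peaks of Lhx9 reach 8.76 and those of Isl1 reach 7.48, while no peak of Lhx2 passes 4.05 and none of Lmx1b passes 4.58.

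A q-value of at most 0.05 (the p-value of MACS2 corrected for the number of tests) was reached by 13 of the 45 FL peaks and by 6 of the 44 HL peaks. Over the whole lists 17.4% of FL peaks and 10.1% of HL peaks reached it. By locus, these were 5 of 8 FL peaks at Lhx9 (62.5%, 95% Wilson interval 30.6 to 86.3%), 5 of 6 at Isl1 (83.3%, 43.6 to 97.0%), 3 of 22 at Lmx1b (13.6%, 4.75 to 33.3%) and 0 of 9 at Lhx2 (upper bound 29.9%). The intervals cover counting error only and treat the peaks of 1 library as independent, although 3 of the Lhx9 FL peaks lay within 2.97 kb. The windows were also chosen with earlier results of these data known. The comparison with the whole list is therefore a description and no test. The FL intervals of Lhx9 and Isl1 lay above the share of the whole list, and those of Lmx1b and Lhx2 included it. In HL the counts were 2 of 5 at Lhx9 (40.0%, 11.8 to 76.9%), 2 of 10 at Isl1 (20%, 5.67 to 51.0%), 1 of 22 at Lmx1b (4.55%, 0.807 to 21.8%) and 1 of 7 at Lhx2 (14.3%, 2.57 to 51.3%). Of these HL intervals, only that of Lhx9 lay above the HL share.

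**Figure D2:**
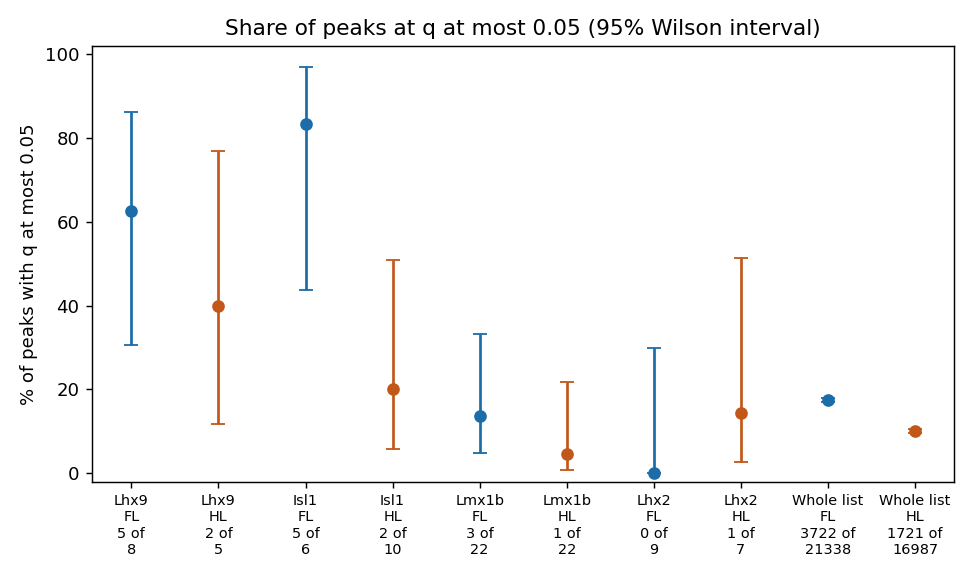
Percentage of peaks with q at most 0.05 (vertical axis) by locus and limb (horizontal axis, FL in blue and HL in orange, counts under each name), with 95% Wilson intervals as bars. The FL points of Lhx9 (62.5%) and Isl1 (83.3%) stand above the whole FL list, and the Lhx2 FL point is at 0 of 9.

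Counted over all listed peaks, Lmx1b was the densest locus. The Lmx1b window held 44 peaks per Mb in each limb, and 0.890% of the 1 Mb bins of the autosomes and X that held an FL peak were at least as dense (0.873% in HL), where the median bin held 7 FL peaks and 5 HL peaks. Lhx2 had 18 FL and 14 HL peaks per Mb, Lhx9 had 11.4 and 7.14, and Isl1 had 4.62 and 7.69. Among peaks of q at most 0.05 the FL order was another, with 7.14 peaks per Mb at Lhx9, 6 at Lmx1b, 3.85 at Isl1 and 0 at Lhx2. The median 1 Mb bin that held such an FL peak had 2. Of those bins, 3.61% were at least as dense as Lhx9, 7.16% as Lmx1b and 20.8% as Isl1. In HL the values were 2.86 at Lhx9 (2 peaks), 2 at Lmx1b and at Lhx2 (1 peak each) and 1.54 at Isl1 (2 peaks). These are too few to order the loci. The median HL bin had 1, with 18.5% of bins at least as dense as Lhx9 and 43.0% as each other locus. The windows are not 1 Mb long, and the counts in the Lhx2 and Lmx1b windows (0.5 Mb each) are scaled up to 1 Mb, so the comparison with bins is rough.

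At Lhx9, all 5 HL peaks overlapped an FL peak (56.6 to 100%), against 29% of the whole HL list. The fold was higher in FL in 4 of the 5 pairs, against 62.1% of all overlapping pairs, and 5 pairs are too few to set that count apart. The tallest FL peak of the 4 loci was here, at chr1:140615932-140616228, 122.9 kb downstream of the Lhx9 start. Its fold was 8.76 in FL (q = 1.95e-15, rank 262 in the FL list) and 4.55 in HL (q = 0.00806, rank 1074). The peak at chr1:140659431-140659888, 79.4 kb downstream, had the widest gap between limbs of all 13 pairs, with 8.01 in FL and 3.09 in HL, of which only the FL value passed q (1.18e-10 against 1). Of the 4813 overlapping pairs of the whole lists, 2.31% had an FL to HL ratio at least as high. This pair was picked as the widest of the 13, so that share is a description only. Between this peak and the tallest one lay a weak pair 105.8 kb downstream, with 3.59 in FL (q = 0.499) and 2.64 in HL (q = 1).

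Upstream of Lhx9 the strongest site did not share that direction. The peak at chr1:140989305-140989813, 250.6 kb upstream, had a fold of 6.00 in FL (q = 3.95e-07) and 6.53 in HL (q = 8.58e-07), with the summits 5 bp apart. It is the tallest HL peak of this locus. An FL peak of 3.94 (q = 0.105) lay on one side of it and another of 4.12 (q = 0.0206) on the other, all 3 within 2.97 kb, and neither flank overlapped an HL peak. The farthest peak, at chr1:141090567-141090869 and 351.7 kb upstream, had 5.73 in FL (q = 2.80e-06) and 3.18 in HL (q = 0.514).

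No peak of either limb lay within 50 kb of the Lhx9 start, the nearest being 78.7 kb away in FL (fold 2.53, q = 1). The upstream sites are also nearer to other genes than to Lhx9. The group of 3 lay 124 to 126 kb past the start of Dennd1b, within that gene's length in the GRCm38 annotation (212 kb). The farthest peak lay 182.9 kb past the start of Crb1, whose annotated length is 203 kb. The peak 122.9 kb downstream of Lhx9 was 99.8 kb from the start of Nek7 and outside its length. Which gene a site acts on was not measured.

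The RefSeq promoter of Lhx9 is shown because it is the only member promoter with a match to a searched motif, although no peak lay near the start. It covers 250 bases before to 50 after the start on the minus strand (GRCm38.p6, chr1:138842395-138842694), with capitals marking the Meis hexamer TGACAG, 125 bases before the start.
Lhx9: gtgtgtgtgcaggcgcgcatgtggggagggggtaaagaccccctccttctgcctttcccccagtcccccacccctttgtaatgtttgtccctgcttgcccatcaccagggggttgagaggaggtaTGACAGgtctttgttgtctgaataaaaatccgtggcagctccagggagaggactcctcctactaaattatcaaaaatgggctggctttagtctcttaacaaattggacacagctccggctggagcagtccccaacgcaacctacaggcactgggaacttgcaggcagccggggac
TGACAG, searched on both strands, occurs in 19.2% of 32851 RefSeq promoters of this length. The Hox-Pbx octamers TGATTTAT and TGATTGAT, held by 0.977% and 0.746% of promoters, were in none of the member promoters.

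At Isl1, the tallest site had close folds in both limbs. The peak at chr13:117279660-117279998, 179.9 kb upstream of the Isl1 start, reached a fold of 7.48 in FL (q = 1.27e-09, rank 454) and 7.89 in HL (q = 9.78e-11, rank 143), with the summits 4 bp apart. It was the tallest HL peak of the 4 loci. A broad peak at chr13:117495881-117496442, about 396 kb upstream, had 4.01 in FL (q = 0.0447) and 4.05 in HL (q = 0.0209), and was split into a pair of summits in each limb. These highest values are from summits 217 bp apart. Taken by the nearest summit, the fold was 4.01 in FL and 3.68 in HL at the first (17 bp apart), and 2.84 in FL and 4.05 in HL at the second (101 bp apart).

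At 3 further Isl1 sites an FL peak passed q and no HL peak did. Such sites were common over the whole lists, where a larger share of FL peaks passed q (17.4% against 10.1%). Of all 4813 overlapping pairs, 1293 passed q in FL alone and 363 in HL alone. Of the FL peaks past q, 67% overlapped an HL peak. The peak at chr13:117267117-117267286, 167.3 kb upstream, had 4.12 in FL (q = 0.0206) and overlapped an HL peak of 2.87 (q = 1). In HL this peak was 1 of 3 within 3.22 kb, the others with folds of 3.34 (q = 1) and 3.80 (q = 0.386), the latter 0.425 kb from the FL peak. The FL peak at chr13:117006404-117006727, 93.3 kb downstream, had a fold of 5.71 (q = 9.78e-06) with no HL peak nearer than 68.1 kb. An FL peak 651.0 kb upstream (fold 4.30, q = 0.0206) lay inside the length of Parp8, with the closest HL peak 31.0 kb away. An HL peak that is not listed may have fallen short of the cutoff of the list, and its signal is not known from these files.

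Of the 10 HL peaks at Isl1, 3 overlapped an FL peak (30%, 10.8 to 60.3%), close to the 29% of the whole HL list. The other 7 had folds from 2.29 to 3.80, and none passed q. They include the only peak near the start, at chr13:117100175-117100445, whose summit was 0.43 kb upstream (fold 2.29, q = 1). In the HL list 680 peaks carry exactly this fold and p-value, which shows how coarse the lowest values are. The RefSeq promoter of Isl1 is shown as the start this HL peak lies next to, on the minus strand (GRCm38.p6, chr13:116309639-116309938), and it holds none of the 3 motifs. The peak itself, upstream of this window by the distances in mm9, is not shown.
Isl1: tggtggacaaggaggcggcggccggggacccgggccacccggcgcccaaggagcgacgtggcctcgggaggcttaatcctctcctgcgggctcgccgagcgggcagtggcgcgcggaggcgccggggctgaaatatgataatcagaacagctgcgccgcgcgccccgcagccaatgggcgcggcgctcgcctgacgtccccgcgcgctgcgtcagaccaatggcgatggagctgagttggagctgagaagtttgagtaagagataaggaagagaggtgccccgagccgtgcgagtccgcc

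**Figure D3:**
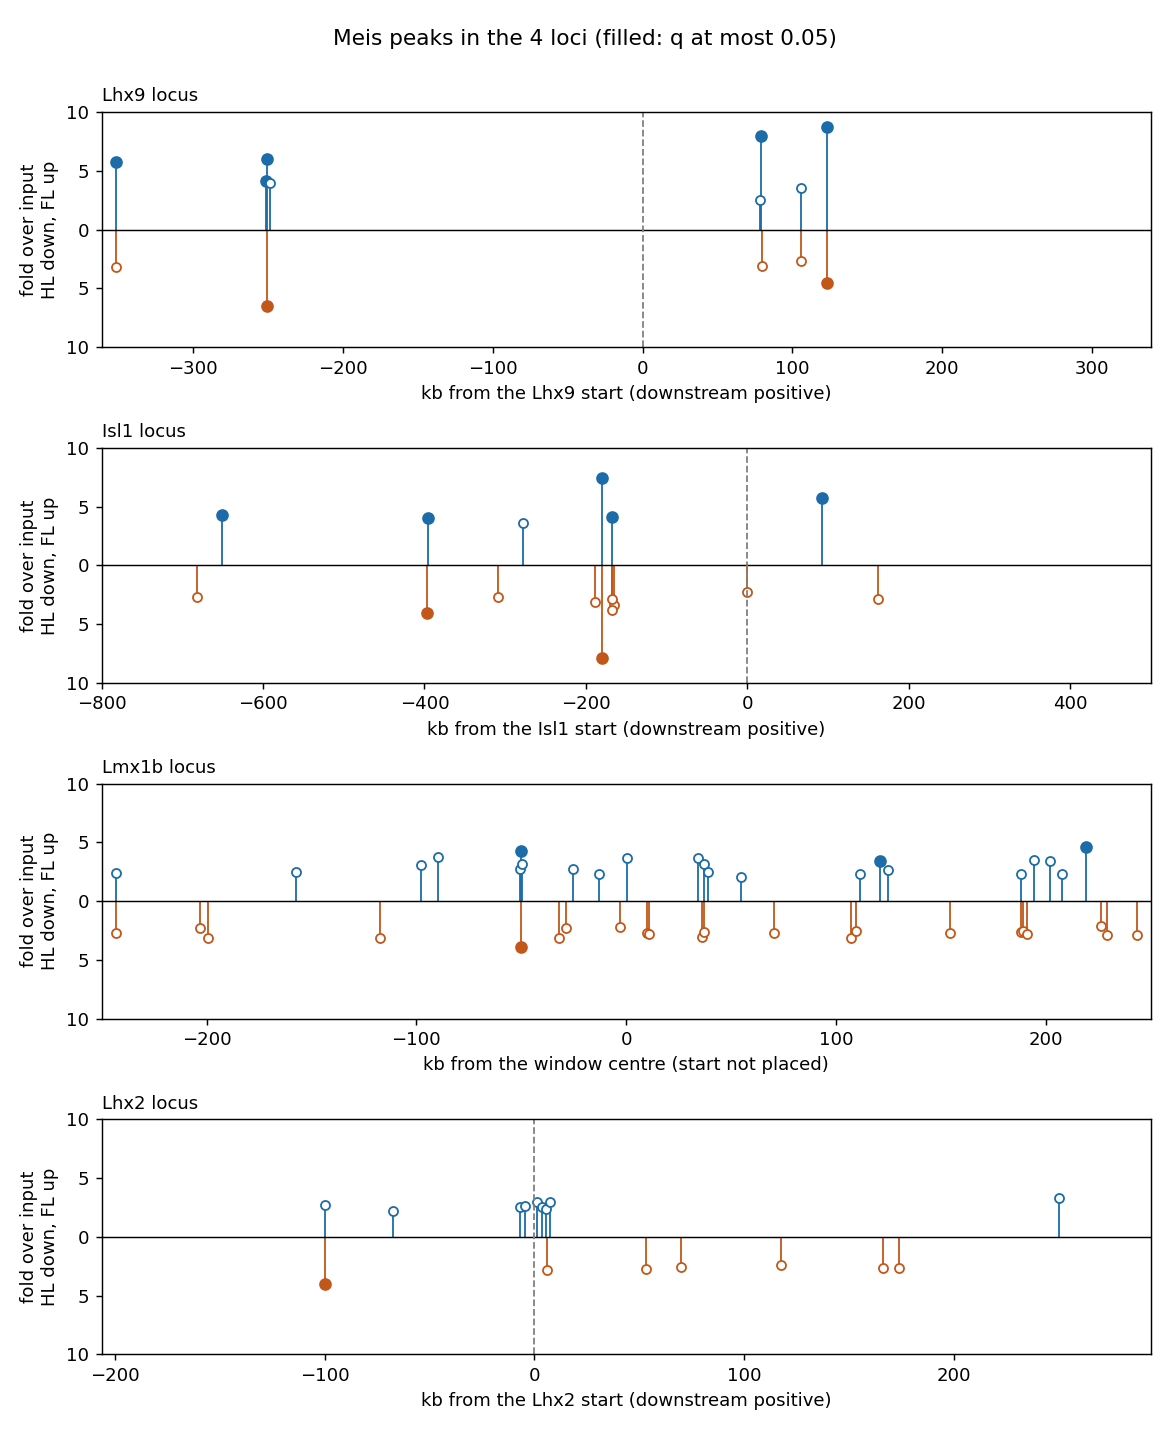
Fold over input (vertical axis, FL upward in blue and HL downward in orange) of each peak by the distance of its summit in kb (horizontal axis) from the gene start, or from the window centre for Lmx1b, with filled points for q at most 0.05. Tall filled FL peaks stand far from the Lhx9 and Isl1 starts (dashed lines), and the 6 low FL peaks within 10 kb of the Lhx2 start are all open.

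At Lhx2, FL peaks gathered around the gene but were low. Within 10 kb of the start the FL list held 6 peaks, 2 upstream and 4 downstream, with folds from 2.35 to 2.97 and q = 1 in each. The nearest was 1.12 kb downstream of the start. The HL list held 1 peak there, 5.81 kb downstream (fold 2.84, q = 1), overlapping an FL peak of 2.35. RefSeq gives Lhx2 2 starts, 12.0 kb apart in GRCm38, and which of them the mm9 start stands for was not settled. The 4 downstream FL peaks lay within the length of the gene from either start (30.5 or 18.4 kb), and the 2 upstream ones would lie inside the longer form if the mm9 start is the downstream one.

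The only Lhx2 peak past q was in HL, at chr2:38106274-38106373, 99.9 kb upstream of the start and inside the length of Dennd1a. It had a fold of 4.05 in HL (q = 0.0209) and 2.70 in FL (q = 1). Both Lhx2 pairs were thus higher in HL, though the summits lay 147 bp apart in the pair near the start (22 bp in the other). The tallest FL peak of the window was 250.3 kb downstream, inside the length of Nek6 (fold 3.30, q = 0.638).

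At Lmx1b, many low peaks were spread over the window. In each limb 3 of 22 peaks overlapped the other limb (13.6%, 4.75 to 33.3%), an interval that includes the whole-list shares of 22.6% in FL and 29% in HL. The pair that passed q in both was at chr2:33399835-33400052, with 4.25 in FL (q = 0.00931) and 3.92 in HL (q = 0.0114) and summits 6 bp apart. It was flanked in FL by peaks of 2.70 and 3.16 (q = 1 for both), so that 3 FL peaks lay within 1.29 kb. The tallest FL peak, at chr2:33669173-33669564, reached 4.58-fold (q = 0.00348), and the closest HL peak was 6.67 kb away. A further FL peak passed narrowly, at chr2:33571159-33571317 (fold 3.42, q = 0.0479).

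The remaining Lmx1b pairs passed q in neither limb. They had 2.35 in FL and 2.68 in HL at chr2:33206773-33206958, and 3.20 in FL and 2.60 in HL at chr2:33487228-33487346. The mm9 start of Lmx1b was not placed here, so these positions carry no distance to it. The placed starts around it are those of Ralgps1, inside the window, and Mvb12b, beyond its end, and the tallest FL peak lay inside the length of Mvb12b (158 kb).

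Over the 4 loci, 13 of 45 FL peaks (28.9%, 17.7 to 43.4%) overlapped an HL peak by at least 1 bp, against 22.6% of the whole FL list. Of the HL peaks 13 of 44 did so (29.5%, 18.2 to 44.2%), against 29% of the HL list. Both intervals included the share of the whole list. These shares belong to lists that keep many weak peaks. In the smaller peak set that the paper reports, most peaks were shared by FL and HL. The low shares here therefore do not show that Meis binding differs between the limbs. All 6 HL peaks past q overlapped an FL peak, against 89.3% of the 1721 HL peaks past q in the whole list, and 8 of the 13 FL peaks past q overlapped an HL peak, against 67% of 3722. The fold was higher in FL in 7 of the 13 pairs, against 62.1% of the 4813 pairs of the whole lists. The median log2 ratio of FL to HL was 0.12 over the 13 pairs and 0.17 over all pairs. By locus it was 0.85 at Lhx9 (5 pairs, -0.12 to 1.37), 0.12 at Lmx1b (3 pairs), -0.02 at Isl1 (3 pairs) and -0.43 at Lhx2 (2 pairs). Each fold is relative to the input of its own limb.

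**Figure D4:**
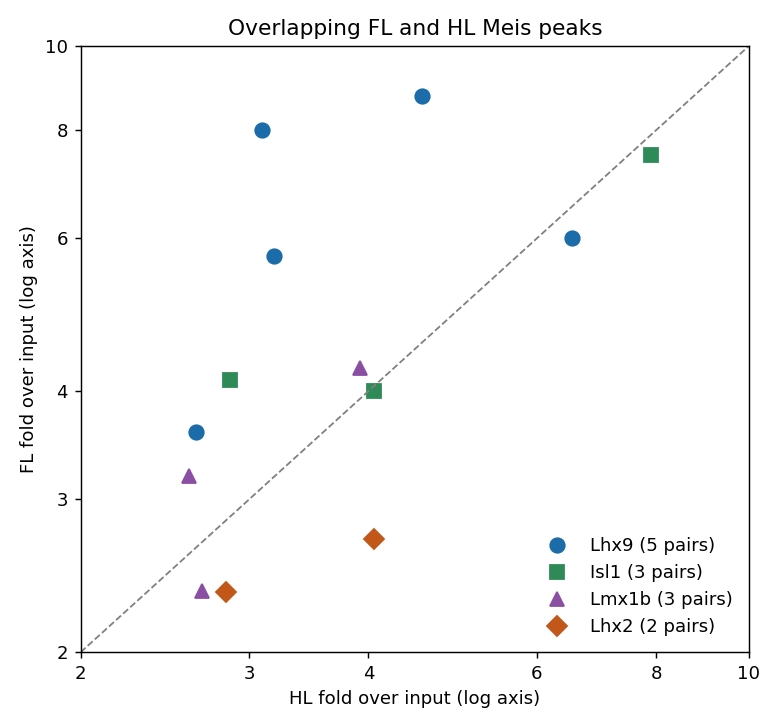
FL fold (vertical, log axis) against HL fold (horizontal, log axis) over input for the 13 pairs of overlapping peaks, with the dashed line at equal folds and a symbol for each locus. Of the 5 Lhx9 pairs 4 lie above the line, both Lhx2 pairs lie below it, and the tallest Isl1 pair (7.48 and 7.89) lies next to it.

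A wider list of LIM genes and their partners gives the setting, and its placed genes include the members Lhx2, Lhx9 and Isl1. Of a list of 23 LIM homeodomain, LIM cofactor and dorsoventral genes, 11 had a placed start, and a gene could be placed only through a peak shared by FL and HL, so the counts describe these genes alone. Within 200 kb of the start, 9 of the 11 had an FL peak of q at most 0.05 and 7 an HL one, against 66.7% and 44.6% of all 1919 genes placed in the same way. Some of these peaks lay at the very edge: the only one of Ldb2 was 199.6 kb from its start in each limb. The only one of Lmx1a, in FL, was 199.4 kb away. Within 100 kb the counts were 6 and 4 of the 11, and the share of all placed genes was not worked out for that window. By class the counts within 200 kb were 4 and 3 of the 6 placed LIM homeodomain genes, 3 and 3 of the 3 cofactors, and 2 and 1 of the 2 dorsoventral genes. The LIM homeodomain genes counted in HL were all members (Lhx2, Lhx9 and Isl1). Those counted in FL were the members Lhx9 and Isl1 with Lhx4 and Lmx1a. Lhx5 had no peak past q in either limb. Ssbp3, which encodes a partner of Ldb proteins, had the tallest FL peak of these genes, 104.8 kb downstream of its start (10.9 in FL and 6.41 in HL). Lmo4, a LIM-only protein, had a peak 4.87 kb downstream with 7.59 in FL and 7.57 in HL. Wnt7a, the dorsal signal upstream of Lmx1b, had one 83.2 kb downstream with 4.65 in FL (q = 0.00355) and 5.22 in HL (q = 0.000121). En1 had its tallest FL peak 168.1 kb downstream (4.11, q = 0.0182), and its tallest HL peak was 3.58 (q = 0.29).

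The borders of the windows decide which peaks are counted. The nearest peaks inside the 16 borders (4 loci, both ends, both limbs) had folds from 2.35 to 8.76, and the nearest outside had folds from 2.17 to 10.9, lying 4.46 to 272.4 kb beyond. Of those outside, 2 passed q, both in HL: one of 10.9 (q = 3.45e-22) 117.9 kb before the Lhx9 window and one of 5.16 (q = 0.000121) 76.6 kb before the Lhx2 window. Only the nearest peak beyond each border was read. In FL weaker peaks lay nearer at these borders (2.53 at 76.7 kb and 2.78 at 7.42 kb). Whether FL had a peak at the HL sites was not examined, so this is no difference between limbs.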

How the data were processed

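Peaks came from 2 ChIP libraries (FL and HL, 1 each), sequenced as 50 bp single-end reads, each called against the input of its limb. The authors trimmed reads with cutadapt 1.3, aligned them to mm9 with BWA and called peaks with MACS2 on each limb separately. The study used a lenient p cutoff to find peaks shared by both limbs and a stricter one for limb-specific peaks. That selection was not applied to the lists used here, which are longer than the peak set the paper reports. The deposited columns hold a fold (ChIP at the summit over the background MACS2 estimated with the input), −log10 p, −log10 q and a score. The score is 10 times −log10 p, cut to a whole number (14 HL rows differ). The highest p was 0.0220 in the FL list and 0.0217 in the HL list, so the lists include weak peaks. The peak files hold no read counts and the study's read totals were not used here, so folds carry no counting interval.

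Rows that share chromosome, start and end were merged to 1 peak, which took its best summit's fold, p and q. Overlap was at least 1 bp, and each FL peak was paired with its overlapping HL peak of highest fold. The study's peak-to-gene distances gave mm9 gene starts, using RefSeq strands, for 1919 genes. Gene lengths and promoters are from GRCm38, with no coordinates converted, and peak sequences were not read, since the genome used here is of another build. Code was tested on simulated data and run in Python 3.11.15 with pandas 2.3.3 and scipy 1.17.1.

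Named peaks were those with q at most 0.05, the tallest of each locus and limb, and every overlapping pair. Flanking peaks, those nearest the Lhx9, Lhx2 and Isl1 starts and those at window borders were chosen after their values were seen. Other genes were named only if their start lay in or beside a window, or from the LIM list. Members, lists and windows were chosen with earlier results of these data known. Alternatives changed the cutoff, the overlap, the counting unit, the window and the length of the FL list.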

Additional observations from a re-analysis of the deposited data

How the results depend on the processing

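Of 42 recomputed values, 27 were classed as the same, 14 as moved and 1 as changed in sign. The first class is broad. It holds the share of FL peaks overlapping an HL peak, which fell from 28.9% to 20% (9 of 45) under a stricter overlap. The tallest peak of each locus and limb was the same when chosen by lowest p. At p at most 0.0005 the windows kept 23 FL and 16 HL peaks. Within 100 kb of the start, the 3 loci with a placed start kept 11 of 23 FL and 6 of 22 HL peaks. At q at most 0.01 there were 8 FL and 3 HL peaks, and at q at most 0.05 with a fold of at least 5 there were 6 and 2. No whole-list share is given at these cutoffs or at p at most 0.0005, so the counts only describe the loci. With only peaks of q at most 0.05, the density was 4.33 FL and 2 HL peaks per Mb, against 15 and 14.7, and the share overlapping the other limb was 61.5% for FL (8 of 13) and 100% for HL (6 of 6), where the whole lists gave 67% and 89.3%. Against only HL peaks of q at most 0.05, 13.3% of FL peaks overlapped, a value also given without its whole-list share. The median difference of −log10 p between FL and HL over the 13 pairs was -0.0556, opposite in sign to the median log2 ratio of folds (0.12). The cause was not tested. In a window of 100 kb, 6 genes of the LIM list had an FL peak of q at most 0.05, against 9, though this was classed as the same. For HL peaks there were 4 genes, against 7.

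No paired analysis was possible because each limb had 1 ChIP library. For the same reason no library could be left out. Repeated values limit the resolution of the folds: 40 of the 45 FL peaks and 41 of the 44 HL peaks share fold and p exactly with another peak of their list. Over the whole lists 95.8% of FL peaks and 96.3% of HL peaks did so.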
